A study of Arabidopsis thaliana with 12 samples.

Results

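The chloroplast genome of *Arabidopsis thaliana* is a small circle of its own, and its genes carry identifiers that begin with ATCG. The table of read counts held 133 such identifiers among 33610 rows. The plastid genome holds a large inverted repeat, so part of its genes is present as a pair of identical copies. Of 19 such pairs, 18 had counts that differed by at most 0.739% and were counted once, whereas the ycf1 pair, of which one copy is cut short by the repeat border, differed by up to 54.2% and was kept as 2 rows. This left 115 genes among 33592 rows: 81 protein-coding genes, 30 tRNA genes and 4 rRNA genes. All 115 passed the filter on low counts, with 17496 genes tested in all.

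The 12 libraries came from whole rosettes of wild-type Col-0 plants, 21 days old, grown on peat in FlowPots, a gnotobiotic system with sterilised substrate. Holoxenic (HO) plants received a live slurry of soil, and axenic (AX) plants received the same slurry after autoclaving. Slurries came from the MSU or the Malaka soil (the second is also written Laurel in part of the labels), which gave 4 groups of 3 libraries: HO-MSU, HO-Malaka, AX-MSU and AX-Malaka. A library is a pool of 8 rosettes from 4 FlowPots of 1 microbox. All plants were of a single genotype, and the whole rosette mixes every leaf cell type and age, so fewer plastid-rich cells or plastids and less RNA per cell cannot be told apart.

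Totals lay between 10211008 and 22710086 counts per library. The 3 leaf markers RBCS1A, LHCB1.2 and CA1 had at least 6930 counts in every library, while the root hair genes COBL9 and EXPA7 had at most 2 counts, the flower genes AP3 and AG at most 6 and the seed storage gene CRU3 at most 1. PYK10, a gene known for its high level in roots and seedlings, had 1054 to 3154 counts. HO and AX levels of the leaf markers and PYK10 are described here without a test. In CPM (library-size-normalised read counts with TMM factors, which correct for composition), CA1 had a mean of 781 ± 62.8 over HO libraries, against 941 ± 32.2 over AX libraries (SD, n = 6 each), and every HO value was below every AX value. Of all genes tested, 4.39% had HO and AX values that did not overlap. The ranges of HO and AX libraries overlapped for the other 3, with means of 3455 ± 388 against 4026 ± 185 for RBCS1A, 1989 ± 128 against 2015 ± 112 for LHCB1.2 and 159.7 ± 18.6 against 135 ± 13.8 for PYK10. Their part in the plastid values was not tested.

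Chloroplasts keep genes for core subunits of the photosynthetic complexes, for the NADH dehydrogenase-like complex (ndh), for the large subunit of Rubisco (rbcL) and for parts of their own transcription and translation machinery. Most are transcribed as long multi-gene RNAs that are then cut, trimmed and spliced, so that the level of each RNA depends on processing and stability as well as on transcription. A bacterial-type RNA polymerase, whose core is encoded by rpoA, rpoB, rpoC1 and rpoC2 in the plastid and which needs nuclear sigma factors, reads mainly photosynthesis genes, and a phage-type polymerase encoded in the nucleus reads mainly housekeeping genes such as rpoB. The table gives identifiers only, so the genes are named here by their established symbols: 24 identifiers were also named by the study's supplement or by RefSeq, and all 24 had the same name there. The other symbols and classes are general knowledge of this genome.

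Plastid RNA was dominated by a few genes. Photosystem II genes took 47.8% to 51.9% of all plastid protein-coding counts, rbcL 15.6% to 18.8% and photosystem I genes 10.6% to 13.7%. Per kilobase of coding sequence, psbA, the D1 protein of photosystem II that is turned over fastest in light, led the 76 genes whose coding length was available, with 29.8% of the counts per kilobase summed over these genes (mean of 12 libraries). It was followed by rbcL at 10.5% and by psaJ, a small photosystem I subunit, at 8.13%. The polymerase gene rpoB, at 0.0924%, and accD, the plastid-encoded acetyl-CoA carboxylase subunit, at 0.0843%, stood near the bottom of that order, and petL, a very small cytochrome b6f subunit, was last at 0.0294%.

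The first question was whether the share of plastid RNA differed between HO and AX plants. Plastid genes together took 48.1%, 44.6% and 45.3% of all counts in HO-MSU libraries and 51.8%, 42.3% and 45.8% in HO-Malaka libraries, against 48.9%, 42.9% and 42.2% in AX-MSU libraries and 44.6%, 38.8% and 39.5% in AX-Malaka libraries. The groups overlapped in both soils. The mean was 46.3% ± 3.27 in HO plants and 42.8% ± 3.67 in AX plants (SD, n = 6 each), a difference of 3.52 percentage points that did not pass an exact two-sided permutation test within soils (P = 0.12, adjusted P = 0.48 over 4 shares). Within one soil, 3 libraries against 3 allow no P below 0.1.

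Protein-coding genes made up most of that share. They took 37.4%, 34.4% and 33.1% of counts in HO-MSU libraries and 44.0%, 27.1% and 37.0% in HO-Malaka libraries, against 40.3%, 32.9% and 32.1% in AX-MSU libraries and 36.0%, 28.3% and 28.9% in AX-Malaka libraries. The highest and the lowest of the 12 values both belonged to HO-Malaka plants. The means were 35.5% ± 5.58 in HO plants and 33.1% ± 4.52 in AX plants (SD, n = 6 each, exact permutation P = 0.46). The difference of 2.45 percentage points was 0.452 without HO-Malaka replicate 1 and 4.68 without HO-Malaka replicate 2. Plastid rRNA was 7.02% to 14.5% in HO libraries and 7.76% to 9.87% in AX libraries (exact permutation P = 0.48, and a difference of -0.0642 points without HO-Malaka replicate 2), and tRNA counts were 0.670% to 0.819% in HO libraries and 0.718% to 0.813% in AX libraries (exact permutation P = 0.525).

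**Figure D1:**
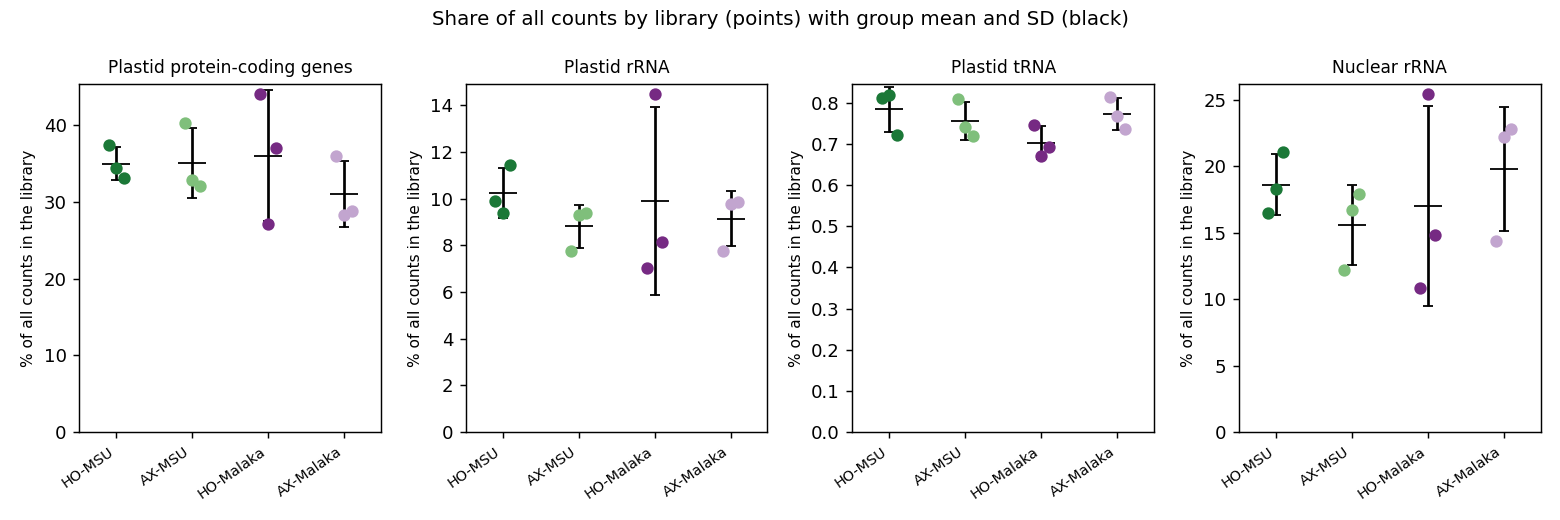
Share of all counts in each library (y axes, percent, starting at 0) taken by plastid protein-coding genes, plastid rRNA, plastid tRNA and nuclear rRNA in HO-MSU, AX-MSU, HO-Malaka and AX-Malaka plants. Points are libraries and black bars the mean and SD of 3; plastid protein-coding genes spread from 27.1% to 44.0% within HO-Malaka plants alone, and nuclear rRNA from 10.8% to 25.4% in the same libraries.

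The share of counts on nuclear rRNA moved with these values. It was 16.5%, 18.3% and 21.1% in HO-MSU libraries and 10.8%, 25.4% and 14.9% in HO-Malaka libraries, against 12.2%, 16.7% and 17.96% in AX-MSU libraries and 14.4%, 22.2% and 22.8% in AX-Malaka libraries, and its part in the plastid values was not tested. With all rRNA genes left out of the sum, plastid mRNA and tRNA together were 4.11 percentage points higher in HO plants (exact permutation P = 0.045, adjusted P = 0.0675 over 3 shares), so the unadjusted test then passed and the adjusted one did not. Per count on nuclear genes other than rRNA, plastid mRNA had 1.07 ± 0.113 counts in HO plants and 0.913 ± 0.112 in AX plants (SD, n = 6 each, exact permutation P = 0.04, adjusted P = 0.08 over 4 measures). These 4 measures were chosen after the values were seen. With the second copy of each repeat pair also counted, the plastid share was 3.65 points higher in HO plants (exact permutation P = 0.04, adjusted P = 0.16), and without AX-MSU replicate 1 it was 4.57 points higher (exact permutation P = 0.025, adjusted P = 0.1).

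Gene by gene, few plastid genes differed between HO and AX plants. On CPM, 2 of 115 plastid genes passed an FDR under 0.05 over both soils (edgeR quasi-likelihood test, soil as a term), both higher in HO plants, whereas 10.2% of all genes tested did, 5.04% higher and 5.18% lower. None reached a 2-fold change, against 1.99% of all genes tested. At an unadjusted P under 0.05 stood 21 plastid genes, 20 of them higher in HO plants, where the share among all genes was 22.1%. No plastid gene had its 6 HO libraries all above or all below its 6 AX libraries, against 4.39% of all genes tested.

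Of the called genes, trnL.1 is described here. The trnL.1 gene, one of the leucine tRNA genes, had 908, 1155 and 1325 CPM as the lowest, median and highest of the 6 HO libraries, against 822, 895 and 1222 CPM over the 6 AX libraries, with a log2 fold change of 0.28 ± 0.09 (SE, adjusted P = 0.047). The ranges overlapped, and the lowest HO value came from HO-Malaka replicate 2.

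The calls changed with the libraries used: trnL.1, close to the threshold, was called in 4 of 12 runs with a library left out. Its log2 fold change over these runs was 0.20 to 0.36. When 1 library at a time was dropped, the count fell to 0 for HO-MSU replicate 3, AX-MSU replicate 2, AX-MSU replicate 3 and AX-Malaka replicate 2, and to 1 for HO-MSU replicate 1, HO-MSU replicate 2, HO-Malaka replicate 3, AX-Malaka replicate 1 and AX-Malaka replicate 3. Dropping HO-Malaka replicate 1 gave 6 called genes (5 higher and 1 lower in HO plants) and dropping AX-MSU replicate 1 gave 8, all higher. DESeq2 called 7, all higher in HO plants, edgeR with no filter on low counts called 12, of which 10 were higher, and with library totals in place of TMM none was called. On that scale the median log2 fold change was 0.04 over the 81 plastid mRNAs and -0.09 over all genes tested. Here and below, counts of genes called in altered runs are given without the share of all genes called in the same run. A change in such a count is therefore not read as particular to plastid genes.

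The direction of the small differences was shared by most mRNAs. The log2 fold change was above 0 in 75 of 81 protein-coding genes, with a median of 0.13 that compares with 0.01 over all genes tested and with a typical SE of 0.10. That median was 0.05 without HO-Malaka replicate 1 and 0.20 without AX-MSU replicate 1, the 2 ends of its range over the left-out libraries. All 11 ndh genes, all 4 rpo genes and 13 of 14 photosystem II genes lay above 0. These genes share transcripts, libraries and scaling factors, so the counts above 0 are a description and not repeated evidence. psbA had 127654, 132763 and 154629 CPM as the lowest, median and highest HO values, against 99632, 110198 and 143498 CPM in AX libraries, and its log2 fold change was 0.27 ± 0.11 (SE, adjusted P = 0.113). rbcL had 55269, 65696 and 68941 CPM as the lowest, median and highest values in HO libraries, against 48443, 53892 and 64908 CPM in AX libraries, and a log2 fold change of 0.22 ± 0.10 (SE, adjusted P = 0.162). Neither passed the test with all libraries, and psbA did without AX-MSU replicate 1 (log2 fold change 0.34, adjusted P = 0.0196).

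The 4 rpo genes were the least displaced class of mRNAs, with a median log2 fold change of 0.09. rpoB, the β subunit of the polymerase, had 1129, 1186 and 1235 CPM as the lowest, median and highest values in HO libraries, against 1059, 1131 and 1218 CPM in AX libraries (log2 fold change 0.05 ± 0.07, SE, adjusted P = 0.735). Of the rRNA genes, rrn23S of the large ribosomal subunit had a log2 fold change of 0.34 ± 0.16 (SE, adjusted P = 0.19), with 36004, 49921 and 88455 CPM as the lowest, median and highest values in HO libraries, against 35393, 43758 and 48298 CPM in AX libraries. The highest of these came from HO-Malaka replicate 2, without which the log2 fold change was 0.10 (adjusted P = 0.695, edgeR). Without HO-Malaka replicate 1 rrn23S was called (log2 fold change 0.45, adjusted P = 0.022). The tRNA genes were split, 17 of 30 above 0.

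**Figure D2:**
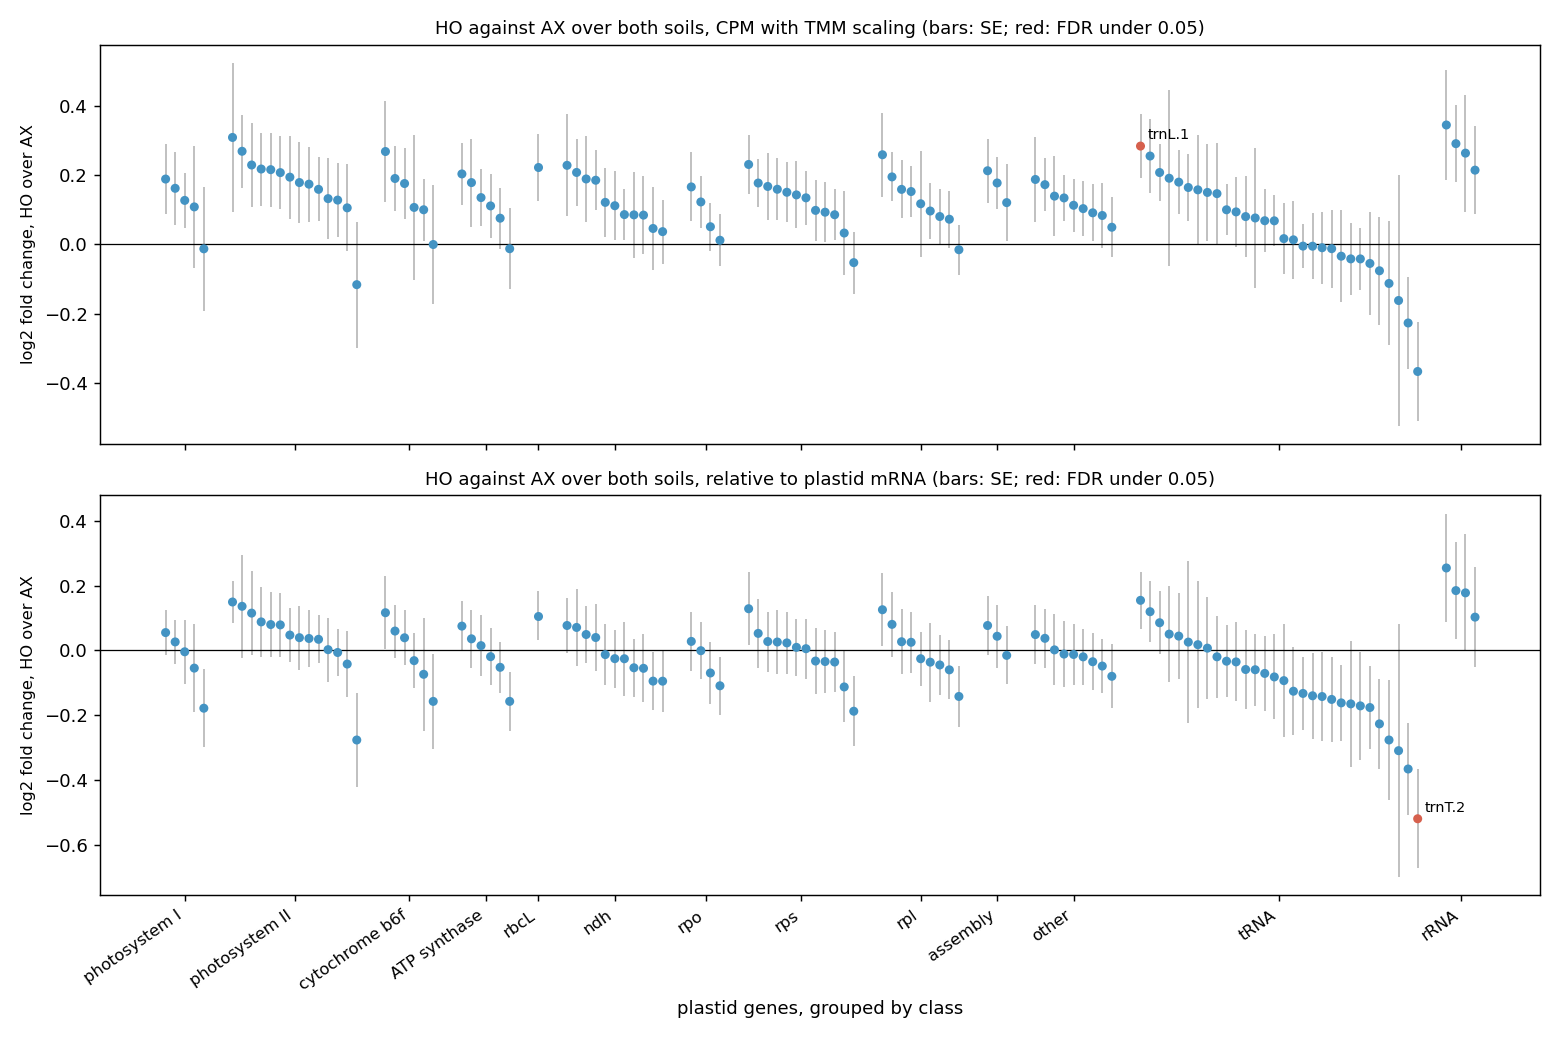
Log2 fold change of HO over AX plants for the plastid genes over both soils (1 gene is not drawn), grouped by class along the x axis, with CPM scaled by TMM (top) and relative to plastid mRNA (bottom). Bars are SE and red points passed an FDR under 0.05; in the top panel most mRNAs lie above 0 and trnL.1 is red, and in the bottom panel only trnT.2 is.

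Within MSU soil, 4 plastid genes passed the FDR, all higher in HO plants, where 6.58% of all genes tested did (3.31% higher). Of these, 2 were the small ribosomal RNAs of the large subunit. How well RNAs this short were recovered was not tested. rrn4.5S is 103 bases long and had 58236 counts over the 12 libraries, against 7593421 for rrn23S. rrn5S had 298, 236 and 363 CPM in HO-MSU libraries, against 201, 210 and 213 CPM in AX-MSU libraries, and did not overlap (log2 fold change 0.52 ± 0.14, SE, adjusted P = 0.0207). rrn4.5S had 486, 353 and 590 CPM in HO-MSU libraries, against 309, 338 and 327 CPM in AX-MSU libraries (log2 fold change 0.55 ± 0.15, SE, adjusted P = 0.0229). The asparagine tRNA gene trnN had 41.2, 49.0 and 49.6 CPM in HO-MSU libraries, against 32.8, 31.6 and 38.9 CPM in AX-MSU libraries (log2 fold change 0.44 ± 0.11, SE, adjusted P = 0.0109). psbJ, a small subunit of photosystem II, had 2025, 2254 and 2443 CPM in HO-MSU libraries, against 1914, 1358 and 1681 CPM in AX-MSU libraries (log2 fold change 0.44 ± 0.14, SE, adjusted P = 0.0486). All 4 were higher in every HO-MSU library than in every AX-MSU library, which adds no support, since this same comparison picked them. With 3 libraries against 3, such a split allows no exact permutation P below 0.1. Its share over all genes tested was not computed. The count was 0 once HO-MSU replicate 3 or AX-MSU replicate 2 was dropped, 1 for HO-MSU replicate 1 or AX-MSU replicate 3, 2 for HO-MSU replicate 2 and 7 for HO-Malaka replicate 1, which enters this fit through the shared estimate of spread. With library totals in place of TMM none of the 4 was called, and with no filter on low counts 7 plastid genes were. In the 12 runs with a library left out, trnN was called in 8, rrn5S and rrn4.5S in 7 each and psbJ in 3.

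Within Malaka soil, no plastid gene passed the FDR in edgeR, against 4.41% of all genes tested, and DESeq2 called 1. At an unadjusted P under 0.05 stood 24, and the share of all genes at that level is not given here for Malaka soil. With no filter on low counts edgeR called 13. The median log2 fold change over the 81 mRNAs was 0.20. It was 0.34 without HO-Malaka replicate 2, when 21 plastid genes were called (18 higher and 3 lower in HO plants), and -0.01 without HO-Malaka replicate 1, when 1 was called, lower in HO plants. One gene was also called without AX-Malaka replicate 1. The median plastid mRNA difference in Malaka plants thus depended on 1 library, and the typical SE of a gene in this comparison was 0.135. The shares of all genes called in the runs with a library left out are not given beside these counts. The gene with the highest value was psbL, another small photosystem II subunit, at 0.77 ± 0.27 (SE, adjusted P = 0.113), with 812, 216 and 362 CPM in HO-Malaka libraries, against 350, 245 and 223 CPM in AX-Malaka libraries. The lowest was the tryptophan tRNA gene trnW, at -0.52 ± 0.17 (SE, adjusted P = 0.088), with 36.9, 29.7 and 25.0 CPM in HO-Malaka libraries, against 53.5, 38.1 and 40.3 CPM in AX-Malaka libraries.

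The soils were compared in the same way. Between MSU and Malaka plants no plastid gene passed the FDR in edgeR, in HO plants (0.291% of all genes tested did), in AX plants (0.652%) or over both treatments (0.263%). At an unadjusted P under 0.05 stood 12, 4 and 9 plastid genes in these 3 comparisons, and DESeq2 called 1 in HO plants and none in AX plants. No plastid gene had a called difference in its HO to AX change between the soils (soil by treatment, 0.28% of all genes tested). There 11 stood at an unadjusted P under 0.05 and none was called by DESeq2. The shares of all genes at an unadjusted P under 0.05 are not given for these comparisons. The counts at that level are therefore not read as differences of plastid genes. Without HO-Malaka replicate 2, 8 plastid genes were called between the soils in HO plants, all higher in MSU plants, and 8 for soil by treatment. Without HO-MSU replicate 2, 1 was called between the soils in HO plants. Plastid genes took 45.3% ± 2.70 of counts in MSU plants and 43.8% ± 4.78 in Malaka plants (SD, n = 6 each, exact permutation P = 0.48).

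To compare plastid genes with each other, counts were also scaled to plastid mRNA, by TMM factors computed over the 81 protein-coding genes, which gives plastid-scaled CPM. This scaling set the median of all genes tested to -0.12 for HO over AX plants, so changes are stated relative to plastid mRNA alone. On this scale 1 of 115 plastid genes was called over both soils, against 7.18% of all genes tested (5.04% lower). It was the threonine tRNA gene trnT.2, which fell by 0.52 ± 0.15 on the log2 scale (SE, adjusted P = 0.0312). Its lowest, median and highest values were 17.97, 21.2 and 36.6 plastid-scaled CPM in HO libraries, against 30.5, 33.7 and 42.6 in AX libraries. The ranges overlapped through HO-MSU replicate 1, and the values rest on 50 to 209 counts per library. No plastid gene was called without HO-MSU replicate 2, HO-Malaka replicate 3, AX-MSU replicate 2, AX-Malaka replicate 1, AX-Malaka replicate 2 or AX-Malaka replicate 3, 2 were called without HO-MSU replicate 1 and 4 without HO-Malaka replicate 1.

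Within the plastid mRNAs, the log2 fold changes on this scale ran from -0.28 to 0.15. The lowest was psbM, a small photosystem II subunit, with 133, 157 and 276 plastid-scaled CPM as the lowest, median and highest HO values, against 175, 203 and 264 in AX libraries (log2 fold change -0.28 ± 0.14, SE, adjusted P = 0.291). The highest was psbA, with 352942, 377360 and 450142 as the lowest, median and highest values in HO libraries, against 329176, 339792 and 366101 in AX libraries (log2 fold change 0.15 ± 0.07, SE, adjusted P = 0.184). Without HO-Malaka replicate 1, psbM was called lower in HO plants at -0.48 (adjusted P = 0.00175) and psaJ at -0.35 (adjusted P = 0.00501), both by edgeR. No plastid gene was called between MSU and Malaka plants over both treatments on this scale, against 0.0629% of all genes tested. There 2 stood at an unadjusted P under 0.05, and the share of all genes at that level is not given.

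Class by class, the changes relative to plastid mRNA were small, and none of the genes named next passed the test. In photosystem I the log2 fold change ran from -0.18 for psaJ to 0.06 for psaA, one of the reaction centre proteins, with psaB at 0.03. In photosystem II, psbD and psbC, the D2 and CP43 proteins, stood at 0.05 and -0.01. Among cytochrome b6f genes petG had -0.16, petB 0.06 and petN 0.12, and among ATP synthase genes atpI had -0.16 and atpA 0.08.

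The ndh genes ran from -0.09 for ndhJ to 0.08 for ndhD, with ndhB at 0.05 and 4 of 11 above 0. The polymerase genes rpoC1, rpoB, rpoC2 and rpoA stood at -0.11, -0.07, 0.00 and 0.03. Ribosomal protein genes ran from -0.19 for rps16 to 0.13 for rps14 in the small subunit and from -0.14 for rpl23 to 0.13 for rpl36 in the large subunit, where rpl2 had -0.03. Of the remaining genes, ycf4, a photosystem I assembly factor, had 0.08, psbN -0.02, clpP1, a subunit of the Clp protease, 0.05, accD -0.01, ccsA, which serves cytochrome c assembly, -0.08, ycf2 -0.02 and the 2 ycf1 rows -0.03 and -0.05. All 4 rRNA genes lay above 0, from 0.10 for rrn4.5S to 0.26 for rrn23S, with rrn16S at 0.18 and rrn5S at 0.19. Without HO-Malaka replicate 2 the sign turned for 3 of them, with rrn16S at -0.17, rrn23S at -0.08 and rrn4.5S at -0.01, and rrn4.5S was also below 0 without HO-MSU replicate 3, at -0.02. Without HO-Malaka replicate 1, rrn23S was called at 0.40 (adjusted P = 0.0221, edgeR). The tRNA genes had a median of -0.09, with 8 of 30 above 0.

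As shares of plastid protein-coding counts, the 11 classes moved little. The genes of the ATP synthase took 5.94%, 5.92% and 5.91% in HO-MSU libraries and 6.16%, 5.56% and 5.99% in HO-Malaka libraries, against 5.97%, 6.06% and 6.11% in AX-MSU libraries and 6.32%, 6.32% and 6.38% in AX-Malaka libraries. In each soil every HO value was below every AX value. The difference of -0.28 percentage points had an exact permutation P of 0.005, the smallest that 400 arrangements allow, and an adjusted P of 0.055 over the 11 classes. The rpo genes averaged 1.51% in HO plants and 1.65% in AX plants (exact permutation P = 0.02, adjusted P = 0.0733), and the genes of large ribosomal subunit proteins 2.20% in HO plants and 2.37% in AX plants (exact permutation P = 0.015, adjusted P = 0.0733). None of the 11 classes passed the adjusted test. Without AX-MSU replicate 1, these 3 did, each at an adjusted P of 0.0183 (exact permutation test).

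These shares depend on the 2 genes that fill most of the sum. psbA alone took 36.2%, 37.1% and 36.4% of plastid protein-coding counts in HO-MSU libraries and 36.2%, 39.6% and 37.9% in HO-Malaka libraries, against 36.9%, 35.9% and 36.6% in AX-MSU libraries and 34.9%, 34.6% and 34.1% in AX-Malaka libraries. In Malaka soil all HO values were above all AX values, and in MSU soil they overlapped. Over both soils psbA averaged 37.3% ± 1.34 in HO plants and 35.5% ± 1.14 in AX plants (SD, n = 6 each, exact permutation P = 0.04, adjusted P = 0.08 over 4 measures chosen after the values were seen). With psbA and rbcL left out of the sum, the difference in the ATP synthase share was -0.02 points (exact permutation P = 0.905). As shares of this smaller sum, the rpo genes differed by -0.138 points (exact permutation P = 0.255). The large ribosomal subunit genes differed by -0.125 points (exact permutation P = 0.505).

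The photosystem II and rbcL shares went opposite ways in the 2 soils. The photosystem II share was 50.3%, 51.9% and 51.1% in HO-Malaka libraries, against 48.7%, 47.9% and 47.8% in AX-Malaka libraries, and 49.8%, 49.9% and 49.5% in HO-MSU libraries, against 50.6%, 49.8% and 50.1% in AX-MSU libraries. The rbcL share was 17.3%, 18.6% and 18.6% in HO-MSU libraries, against 16.7%, 16.1% and 17.2% in AX-MSU libraries, with no overlap, and 15.6%, 18.8% and 16.4% in HO-Malaka libraries, against 16.7%, 18.3% and 18.6% in AX-Malaka libraries, with overlap. The difference between soils was not tested for these shares.

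**Figure D3:**
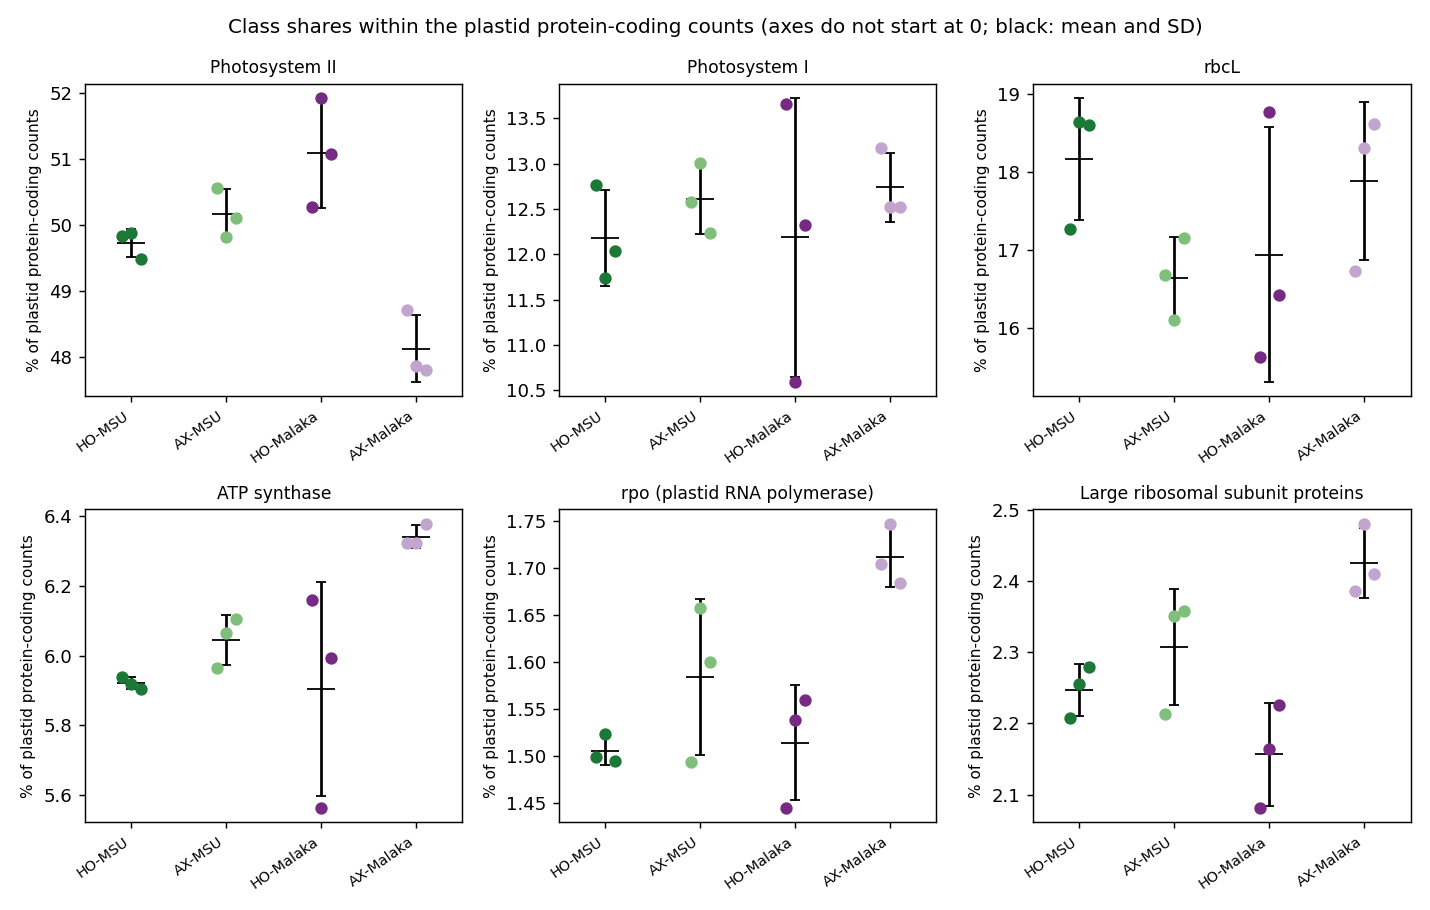
Share of plastid protein-coding counts (y axes, percent, not starting at 0) of 6 classes of genes in HO-MSU, AX-MSU, HO-Malaka and AX-Malaka libraries (points), with the mean and SD of 3 libraries in black. ATP synthase shares lie lower in HO than in AX plants of each soil, by 0.124 points in MSU and 0.435 points in Malaka plants, and photosystem II shares separate HO from AX only in Malaka plants.

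The largest variation in the plastid mRNAs lay between libraries of the same group. In a principal component analysis of log2 counts relative to plastid mRNA, the first component held 71.1% of the variance. HO-Malaka replicate 1 lay at 2.49 and HO-Malaka replicate 2 at -1.51, the 2 ends of the axis, and HO and AX plants overlapped on it, also with any single library left out (12 of 12 runs). The median SD within groups was 0.205 on the log2 CPM scale for plastid mRNAs. It was 0.109 for the 493 genes tested with a mean of at least 100 CPM, a set that includes plastid mRNAs. Relative to plastid mRNA, the range over the 12 libraries was smallest for psaB, the photosystem I reaction centre protein, at 0.10 log2 units, had a median of 0.36 over the 81 genes and was largest for petL at 1.56.

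At one end of the axis stood psbL, petL, psaJ, psaI, psbM and petG, all encoding small membrane subunits, and at the other psbJ, rps14 and ndhI. Of the latter, psbJ also encodes a small subunit, of photosystem II. Relative to its own mean, psbL was 0.92 log2 units above in HO-Malaka replicate 1 and psbJ 0.84 below. The 10 genes with the highest loadings had a median coding length of 115.5 bases and 31.9% GC, and the 10 with the lowest a median of 393 bases and 38.4% GC. Over the 76 genes with a length, the loading correlated with log2 coding length at r = -0.423 and with GC content at r = -0.429; genes are not independent replicates, they share transcripts and libraries, and this is a description only.

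**Figure D4:**
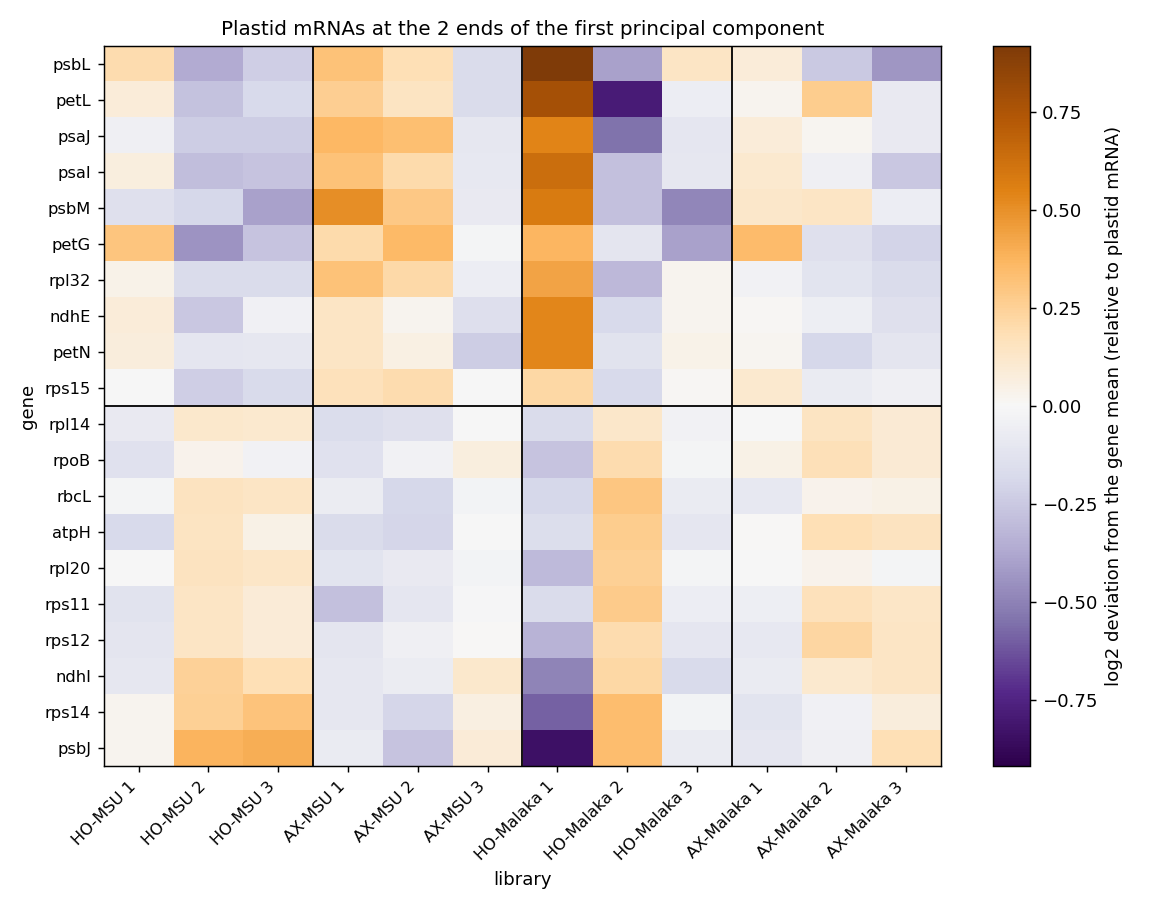
Log2 deviation of each gene from its mean over the 12 libraries, relative to plastid mRNA (color), for the 10 genes at each end of the first principal component (rows) in every library (columns; HO left of AX within each soil). HO-Malaka replicate 1 has the strongest pattern, with psbL at 0.92 and psbJ at -0.84, and HO-Malaka replicate 2 the opposite one.

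psbJ and psbL are shown here as sequence because they are known to sit in one transcription unit, psbE-psbF-psbL-psbJ, yet relative to plastid mRNA they deviated in opposite directions in the libraries at both ends of the axis. psbE and psbF encode the subunits of cytochrome b559 in photosystem II. In the RefSeq TAIR10.1 plastid sequence (Pltd), the unit lies on the minus strand, with psbE at Pltd:64071-64322, psbF at Pltd:63942-64061, psbL at Pltd:63804-63920 and psbJ at Pltd:63538-63660, each a single coding exon. The coding sequences are 252, 120, 117 and 123 bases long with 42.5%, 41.7%, 30.8% and 38.2% GC. No stretch of 50 bases, the length of a read, of psbL or psbJ occurs in the nuclear or mitochondrial sequence of that assembly. This does not hold for every plastid gene. Of 87 protein-coding and rRNA identifiers with coordinates, 70 had no such shared stretch. Among the others, 14.5% of the stretches of rbcL, 13.9% of those of rrn23S and 7.70% of those of psbA were shared. The part of shared stretches in the plastid counts was not tested. Start and stop codons are in capitals.
psbE: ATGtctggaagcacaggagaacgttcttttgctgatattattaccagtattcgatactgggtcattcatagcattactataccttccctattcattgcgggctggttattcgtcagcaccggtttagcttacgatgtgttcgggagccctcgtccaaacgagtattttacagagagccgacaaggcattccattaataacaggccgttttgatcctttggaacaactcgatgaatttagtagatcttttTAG
psbF: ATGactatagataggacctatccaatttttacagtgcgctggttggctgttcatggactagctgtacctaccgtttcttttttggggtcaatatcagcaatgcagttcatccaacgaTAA
psbL: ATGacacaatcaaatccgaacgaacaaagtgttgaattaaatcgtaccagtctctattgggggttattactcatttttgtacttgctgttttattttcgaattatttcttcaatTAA
psbJ: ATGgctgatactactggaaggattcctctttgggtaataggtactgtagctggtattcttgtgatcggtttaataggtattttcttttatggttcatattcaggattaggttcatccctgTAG

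psbL received 6416, 5187 and 3615 counts in HO-MSU libraries and 12586, 2073 and 4616 in HO-Malaka libraries, against 7232, 4628 and 3436 in AX-MSU libraries and 3942, 3510 and 1990 in AX-Malaka libraries. psbJ received 29859, 45519 and 29169 counts in HO-MSU libraries and 19534, 18149 and 20946 in HO-Malaka libraries, against 28927, 17714 and 21487 in AX-MSU libraries and 18190, 21185 and 15997 in AX-Malaka libraries. The ratio of psbJ to psbL counts was 4.65, 8.78 and 8.07 in HO-MSU libraries and 1.55, 8.75 and 4.54 in HO-Malaka libraries, against 4.00, 3.83 and 6.25 in AX-MSU libraries and 4.61, 6.04 and 8.04 in AX-Malaka libraries. It did not separate the groups (exact permutation P = 0.665 for HO against AX within soils). psbE to psbF stayed between 2.95 and 3.31 and psaB to psaA between 1.21 and 1.28 in all 12 libraries. The ratio of rps14 to psaA, also known to share a transcript, varied more, between 0.0547 in HO-Malaka replicate 1 and 0.104 in HO-Malaka replicate 2, the same ends as the first component.

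The psbJ to psbL ratio was also set against the composition of the library, as a description with no test, since the pair was chosen from the 81 mRNAs for lying at opposite ends of the first component, and the libraries at those ends also have the lowest and the highest share of nuclear rRNA. Over the 12 libraries its log2 value correlated with the share of nuclear rRNA at Pearson r = 0.824 and Spearman rho = 0.811, the first of 3 relations computed. Without the 2 libraries farthest from the median share r was 0.765, and it was 0.868 over the 6 HO libraries and 0.832 over the 6 AX libraries. Against the plastid protein-coding share r was -0.801 and Spearman rho was -0.615, and r was -0.566 without the 2 farthest libraries. Against total counts r was -0.0381 and rho 0.0839. Both shares and the ratio come from the same libraries.

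**Figure D5:**
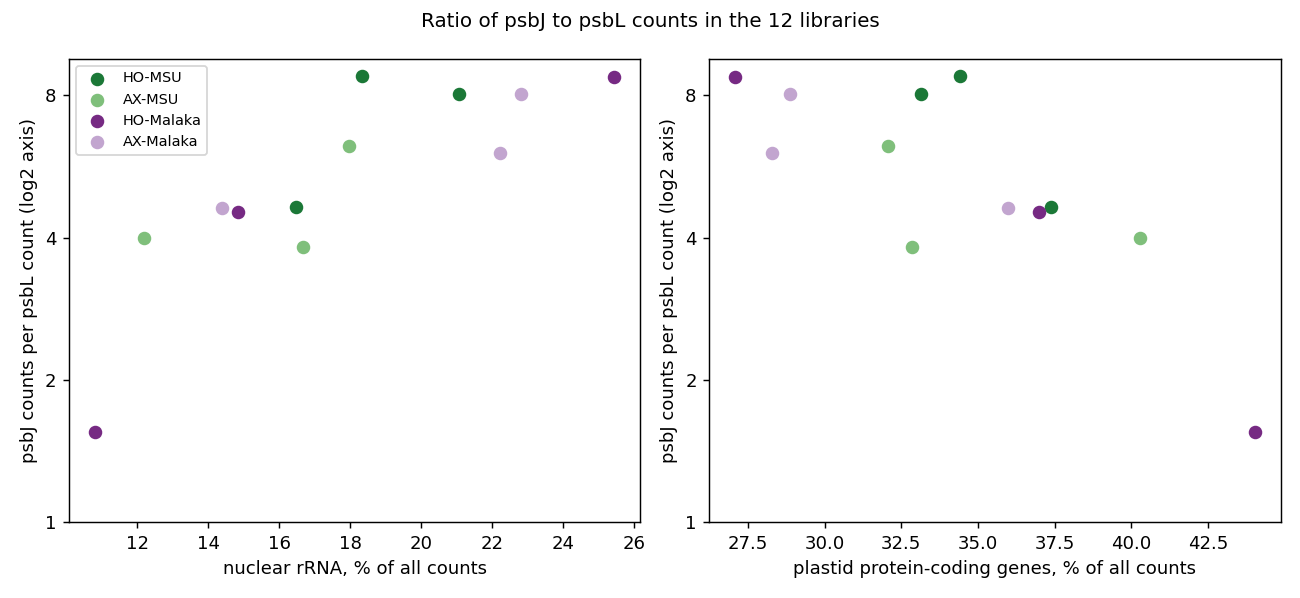
psbJ counts per psbL count (y axis, log2 scale) against nuclear rRNA (left) and plastid protein-coding genes (right) as percent of all counts in 12 libraries, colored by group. The ratio runs between 1.55 in HO-Malaka replicate 1 and 8.78 in HO-MSU replicate 2 and is higher where the nuclear rRNA share is higher (r = 0.824).

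The second component, with 9.51% of the variance, did order HO and AX plants. HO libraries lay between 0.10 and 0.70 and AX libraries between -0.85 and -0.07 with no overlap, which is a description of a score over these genes and was not tested. Genes that weighed toward the HO side were rpl36, psbL, psbT and psbA, and toward the AX side psbM, petL, psaJ, rpl23 and rpoC1. HO and AX plants did not overlap in 11 of 12 runs with a library left out. They overlapped without HO-Malaka replicate 3, with HO plants at 0.09 to 0.45 and AX plants at -0.88 to 0.14.

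Nuclear genes that serve plastid transcription were read as a list of 20 genes: 6 sigma factors, 2 phage-type polymerases and 12 proteins associated with the plastid-encoded polymerase (PAPs). All 20 were tested, and 5 differed between HO and AX plants over both soils (FDR under 0.05, edgeR), 1 higher and 4 lower in HO plants, where 10.2% of all genes tested did, 5.04% higher and 5.18% lower. The list had a median log2 fold change of -0.12, against 0.01 over all genes tested. Among the sigma factors, which direct the plastid-encoded polymerase to promoters, SIG5, a light- and stress-responsive factor that acts at psbD, fell by 0.34 ± 0.09 (log2, SE, adjusted P = 0.0117), with 25.4, 28.2 and 30.0 CPM as the lowest, median and highest HO values, against 27.4, 38.1 and 40.3 CPM in AX libraries. SIG2, which serves certain tRNA genes, fell by 0.22 ± 0.07 (log2, SE, adjusted P = 0.038), with 44.6, 49.2 and 57.1 CPM as the lowest, median and highest values in HO libraries, against 53.4, 57.3 and 63.0 CPM in AX libraries.

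Among the PAPs, PAP10, a thioredoxin of the polymerase complex, fell by 0.51 ± 0.11 (log2, SE, adjusted P = 0.00269). Its lowest, median and highest values were 6.95, 8.85 and 10.6 CPM in HO libraries, against 11.9, 12.0 and 14.3 CPM in AX libraries, and it was the 1 gene of the 20 without overlap, where 4.39% of all genes tested had none. PAP4, the iron superoxide dismutase FSD3 of the complex, fell by 0.49 ± 0.13 (log2, SE, adjusted P = 0.0179), with 3.27, 4.46 and 5.41 CPM as the lowest, median and highest values in HO libraries, against 5.36, 6.00 and 7.01 CPM in AX libraries. RPOTmp, the phage-type polymerase of plastids and mitochondria, rose by 0.48 ± 0.13 (log2, SE, adjusted P = 0.0152), with 5.61, 7.27 and 7.49 CPM as the lowest, median and highest values in HO libraries, against 4.26, 4.87 and 6.36 CPM in AX libraries. The plastid phage-type polymerase RPOTp did not pass the test (log2 fold change 0.03 ± 0.07, SE, adjusted P = 0.853). On the scale relative to plastid mRNA, which itself sets the median of all genes to -0.12, 4 of the 20 were called, all lower in HO plants, against 7.18% of all genes tested, 5.04% lower. That count was 6 without HO-Malaka replicate 2 or AX-MSU replicate 1, 2 without HO-MSU replicate 2 or AX-Malaka replicate 1, and 1 without HO-MSU replicate 1, AX-MSU replicate 2 or AX-MSU replicate 3. On CPM in MSU soil alone 2 of the 20 were called, SIG5 and PAP4, both lower in HO plants (6.58% of all genes tested), and in Malaka soil alone 2, PAP10 lower and RPOTmp higher (4.41%). With a library left out, PAP10 and RPOTmp were called in all 12 runs, SIG5 in 11, PAP4 in 10 and SIG2 in 3. Of the list 3 to 6 were called, 3 of them without HO-MSU replicate 2, AX-MSU replicate 2 or AX-Malaka replicate 1. The gene psbD, known as a target of SIG5, had a log2 fold change of 0.19 ± 0.12 (SE, adjusted P = 0.365).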

How the data were processed

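RNA of 12 rosette pools, extracted with the RNeasy Plant Mini column kit, was sequenced as single reads of 50 bases. How well that extraction recovered RNAs as short as tRNAs, rrn5S and rrn4.5S was not tested. Per the labels and the study's methods, the authors trimmed reads (Trimmomatic 0.39), aligned them to TAIR10 (STAR) and counted them per gene (featureCounts); they deposited whole-number counts. Stranded libraries were made with a NuGEN Ovation kit for Arabidopsis. The strand setting of the counting is not given in the sources used here. Nor do they say whether the kit's protocol removed rRNA. The rRNA shares and changes therefore describe these libraries and not rRNA levels in the plant. Inverted-repeat pairs whose counts differed by at most 1% were counted once. This was done for plastid pairs only. All nuclear rRNA rows were kept in the totals, and whether they repeat the same reads was not tested. Genes were filtered by edgeR's filterByExpr (minimum count 10) and tested by edgeR 4.0.16 quasi-likelihood on TMM-scaled counts in R 4.3.3, with Benjamini-Hochberg adjustment over 17496 genes; FDR under 0.05 was called. DESeq2 1.42.0 was an alternative. Shares were compared by exact two-sided permutation within soils (400 arrangements). The tests were run first on simulated data. Nothing says that replicates are separate experiments, so P values measure the spread between these pools. The members, lists and tests were chosen with earlier results of these data known. Named were, per class, the most abundant gene and the highest and lowest change relative to plastid mRNA, chosen functional genes, and called genes; psaI, trnW, ndhI and other genes at the ends of a component or of a soil's changes were named after their values were seen. The values of 1 called plastid gene are not reported here.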

Additional observations from a re-analysis of the deposited data

Results flagged for a closer look

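The share of plastid protein-coding counts on small ribosomal subunit genes was 2.07% in AX-MSU replicate 1, farther below the other 5 AX libraries (2.20% to 2.25%) than Dixon's test allows at the 95% level. Of 56 groups of 6 libraries tested this was the 1 that stood out, where chance gives about 1 in 20.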

How the results depend on the processing

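No result changed its sign while called. With rRNA left out of the denominator the HO minus AX difference was 4.11 percentage points for the plastid share and 4.11 for its protein-coding part, and with both repeat copies counted the plastid share differed by 3.65 points; each then had an unadjusted P under 0.05. The number of plastid genes called, 2 over both soils, was 0 with total counts, 12 with no filter, 7 with DESeq2 and 6 with HO-Malaka left with 1 library, an alternative added after seeing the data. For HO against AX in MSU (4) it was 0 with total counts, 2 with TMM without rRNA genes and 7 with no filter. In Malaka (0) it was 1 with total counts, 13 with no filter and 1 with DESeq2. For MSU against Malaka (0) it was 6 in HO plants with no filter, 1 with DESeq2, and 5 in AX plants with no filter, and for soil by treatment (0) 8 with no filter. Relative to plastid mRNA (1) it was 2 with the sum of plastid mRNA without TMM, 2 with no filter and 2 with HO-Malaka left with 1 library. The share of all genes called under each setting is not given beside these counts. The causes were not tested.

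Same-numbered HO and AX libraries deviated with r of -0.026 to 0.092 over all genes, and 4 of 12 libraries correlated best with their own number. Over plastid mRNA alone r was 0.621, -0.607 and 0.679 for the numbers 1 to 3 in MSU and 0.575, 0.165 and 0.265 in Malaka, so 5 of 6 pairs deviated together and 1 went the other way. Nothing in the labels ties the numbers across groups, and they were not taken to pair samples. With a replicate block, 12 plastid genes were called over both soils, 5 in MSU, 10 in Malaka, 3 for MSU against Malaka in HO plants, 1 in AX plants, 2 for soil by treatment and 2 relative to plastid mRNA, and the plastid share had an exact P of 0.0625.

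With each library left out in turn, the plastid share differed by 2.23 to 4.61 points, its protein-coding part by 0.452 to 4.68, the ATP synthase share by -0.343 to -0.194, the rpo share by -0.161 to -0.120 and the large ribosomal subunit share by -0.188 to -0.145. Plastid genes called were 0 to 8 over both soils, 0 to 7 in MSU, 0 to 21 in Malaka, 0 to 8 for MSU against Malaka in HO plants, 0 to 8 for soil by treatment and 0 to 4 relative to plastid mRNA, and 3 to 6 of the nuclear list were called.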
